A study of Mus musculus with 6 samples.

Results

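Astrocytes release proteins that tell neurons where to build and strengthen synapses. The account below follows 7 of their genes in the mouse paraventricular thalamus, namely the thrombospondin genes Thbs1 and Thbs2, the SPARC family genes Sparc and Sparcl1, the glypican genes Gpc4 and Gpc6, and the chordin-like gene Chrdl1. They were chosen by symbol, and all 7 were found, 1 row each, among the 21959 genes of the table. The libraries were bulk RNA sequencing of this midline thalamic nucleus, 3 from mice with chronic constriction injury (CCI, replicates 1, 2 and 3) and 3 from mice given no treatment (PVT_WT, replicates 4, 5 and 6). Both groups have the genotype label WT, CCI being a model of neuropathic pain made by tying a peripheral nerve loosely. Age, sex and the time after injury are not given in the sources used here. The series describes 30 mice in each group without saying which mice went into which library. Each p-value therefore reflects only how these libraries vary, and some of that variation may be technical.

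Thrombospondins act on neurons through the calcium channel subunit alpha2delta-1 and start the formation of synapses. Sparcl1 (hevin) bridges proteins of the presynaptic and postsynaptic membranes, and Sparc is known to counter its action. Gpc4 and Gpc6 bring AMPA-type glutamate receptors to the cell surface, and Chrdl1, an inhibitor of bone morphogenetic proteins (BMPs), favours the maturation of these receptors at synapses.

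In CCI, Gpc6 rose 2.24-fold, while Sparcl1 fell to 0.513 and Sparc to 0.651 of the PVT_WT level, after scaling by trimmed means (TMM). Thbs1, Thbs2, Gpc4 and Chrdl1 did not pass the test. The falls of Sparcl1 and Sparc depended on the scaling between libraries. The rise of Gpc6 passed under each such scaling, but not once trends with gene length and mean expression were removed together. Within each library, the SPARC family pair made up nearly all of the summed level of the 7 genes. The remaining 5 genes took a larger share in every CCI library than in any PVT_WT library. Trends with gene length and mean expression were not removed from these shares.

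Promoter sequences from RefSeq (build GRCm38.p6) were matched by symbol for 3 of the 7 genes. These 3 are shown because the table held them. Sparc and Thbs2 varied together across the 6 libraries (Pearson r = 0.86 on log2 CPM, a description without a test). Gpc4, at 14 to 37 counts per library, varied against Sparc (r = -0.66) and less so against Thbs2 (r = -0.37). Whether the sequences bear on this was not tested. Each window runs 5′ to 3′ on the minus strand from 250 bases before the start of the gene to 50 after it. Capitals mark the matches to 3 motifs, searched on both strands with overlapping matches allowed: the GC box GGGCGG, the TATA box TATAAA and the AP-1 site TGANTCA.
Sparc promoter: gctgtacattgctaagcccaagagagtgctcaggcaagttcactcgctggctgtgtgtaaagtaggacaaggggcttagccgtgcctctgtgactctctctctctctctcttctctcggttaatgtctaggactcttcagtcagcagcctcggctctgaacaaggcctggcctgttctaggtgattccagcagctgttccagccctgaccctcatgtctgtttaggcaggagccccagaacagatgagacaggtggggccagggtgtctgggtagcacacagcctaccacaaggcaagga
Thbs2 promoter: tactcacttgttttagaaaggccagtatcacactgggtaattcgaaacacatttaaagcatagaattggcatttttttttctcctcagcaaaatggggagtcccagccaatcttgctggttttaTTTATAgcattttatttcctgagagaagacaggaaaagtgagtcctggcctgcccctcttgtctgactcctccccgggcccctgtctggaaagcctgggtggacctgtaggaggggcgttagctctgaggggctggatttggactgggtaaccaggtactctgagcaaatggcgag
Gpc4 promoter: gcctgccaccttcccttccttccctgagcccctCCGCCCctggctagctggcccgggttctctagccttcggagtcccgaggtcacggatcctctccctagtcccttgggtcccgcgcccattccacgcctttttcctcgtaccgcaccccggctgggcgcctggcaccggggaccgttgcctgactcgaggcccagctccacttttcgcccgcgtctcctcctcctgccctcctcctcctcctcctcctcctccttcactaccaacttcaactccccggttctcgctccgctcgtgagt
The Sparc window is chr11:55420031-55420330, the Thbs2 window chr17:14694213-14694512 and the Gpc4 window chrX:52164874-52165173. The Gpc4 window is the richest of the 3 in G and C, at 66.7%, against 55.3% for Sparc and 48.3% for Thbs2. It holds 1 GC box, read on the other strand. At least 1 GC box on either strand is found in 35.7% of 32851 windows of this length. The Thbs2 window holds 1 TATA box letter match on the other strand. At least 1 such match on either strand is found in 13.6% of windows. The Sparc window holds none of the 3 motifs, and the AP-1 letters, present in 7.81% of windows, are in none of the 3 windows. Thbs1, Sparcl1, Gpc6 and Chrdl1 are named without a promoter.

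The deposited counts summed to 7989139 to 10529886 per CCI library and 12337448 to 15438268 per PVT_WT library. Of 14259 genes tested, 3853 (27.0%) were higher and 3608 (25.3%) lower in CCI. The TMM scaling factor was 1.21 to 1.25 for CCI libraries and 0.686 to 0.90 for PVT_WT libraries. With library totals in their place, the median shift of all log2 fold changes was 0.59 upward, and 45.4% of genes were called higher and 9.73% lower. PVT_WT replicate 5 had the lowest TMM factor. The choroid plexus gene Ttr varied more within the controls than between groups, at 189 to 2303 FPKM in PVT_WT. The 8 choroid plexus and ependyma markers summed to 233 FPKM in PVT_WT replicate 6. They summed to 2073 and 2444 FPKM in PVT_WT replicates 4 and 5, and to 2097 to 2982 FPKM in CCI. The part of this difference in the results below was not tested. The sources used here do not say whether counting used strand.

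Neuronal and astrocyte markers had counts in every library, as a brain sample should have. Of 16 astrocyte markers none was at 0 in any library, so astrocyte RNA was present throughout, but a bulk sample cannot show which cell a transcript came from. A drop in the number of cells of a type and a drop in RNA per cell cannot be told apart. The summed level of these markers was 1071 to 1205 FPKM in CCI and 2017 to 2117 FPKM in PVT_WT. Most of that gap was Aldoc, the brain form of aldolase; without it, a step added after the values were seen, the sums were 664 to 775 FPKM in CCI and 706 to 798 FPKM in PVT_WT, and overlapped. Of the 16 markers 3 were called higher and 6 lower. Among 9 reactive astrocyte genes 5 of the 7 tested were higher and none lower. Of all tested genes 27.0% were higher and 25.3% lower. Gfap, the astrocyte intermediate filament gene, stood at 72.9 to 87.1 FPKM in CCI and 13.4 to 36.0 FPKM in PVT_WT.

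Other cells also make these proteins. SPARC family genes are active in blood vessels, thrombospondins in fibroblasts and glypicans in oligodendrocyte precursors. These examples are not a full list of sources. Endothelial markers, 10 of 10 with counts, summed to 71.9 to 83.9 FPKM in CCI and 53.7 to 67.5 FPKM in PVT_WT. Fibroblast markers, 9 of 10 with counts (Igf2 had none in any library), summed to 36.6 to 41.0 FPKM in CCI and 20.2 to 26.2 FPKM in PVT_WT. The 12 oligodendrocyte precursor markers summed to 221 to 257 FPKM in CCI and 45.0 to 65.4 FPKM in PVT_WT. The 12 microglia markers summed to 189 to 265 FPKM in CCI and 134 to 164 FPKM in PVT_WT. On the TMM scale the endothelial, fibroblast and microglia sums overlapped between groups and the precursor sum did not. The 10 mural (vessel wall) markers overlapped in FPKM, and on the TMM scale they summed to 198 to 241 CPM in CCI and 262 to 351 CPM in PVT_WT. On that scale the astrocyte marker sum was 4253 to 5049 CPM in CCI and 9571 to 12108 CPM in PVT_WT. The sum of the 10 neuronal markers was 3661 to 4108 CPM in CCI and 7614 to 9982 CPM in PVT_WT. The part of these cells in the results below was not tested.

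**Figure D1:**
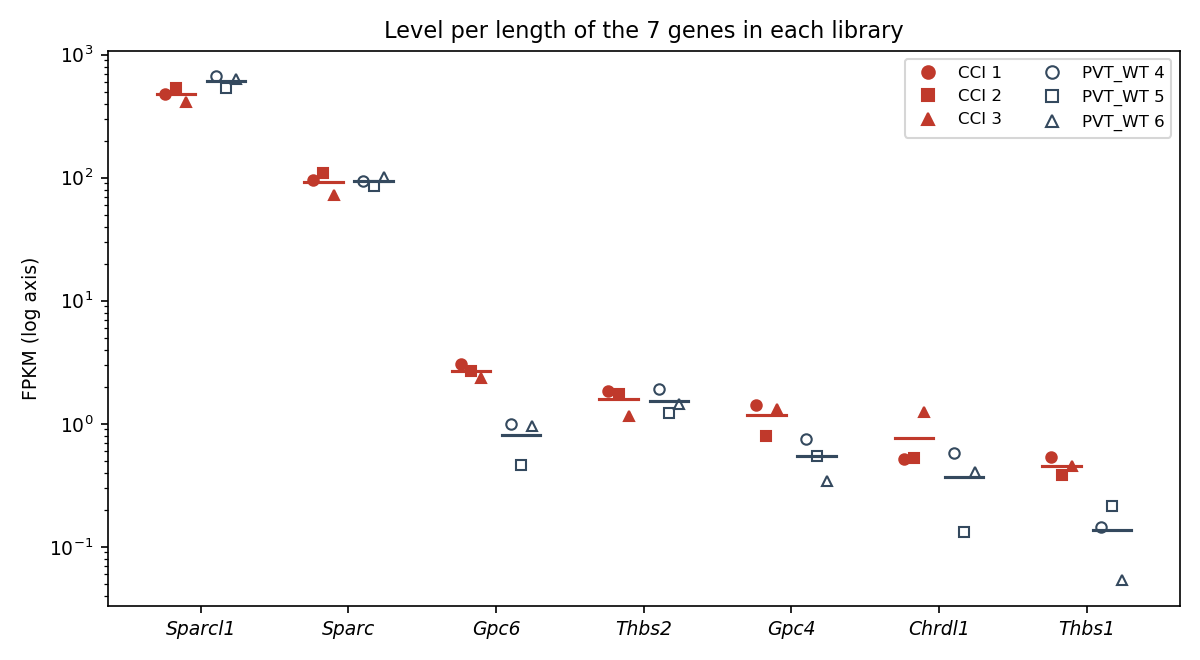
Level of each gene in FPKM (log axis) in every library, CCI filled and PVT_WT open, with a bar at the group mean. Sparcl1 and Sparc lie far above the other 5 genes, and Gpc6 and Gpc4 are higher in all 3 CCI libraries, as is Thbs1. On FPKM 54.1% of all tested genes were higher in CCI without overlap and 12.5% lower. Gpc4 overlapped on the TMM scale.

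Levels per length, in FPKM, ranked the genes. In CCI the order by mean was Sparcl1, Sparc, Gpc6, Thbs2, Gpc4, Chrdl1 and Thbs1, and in PVT_WT it was Sparcl1, Sparc, Thbs2, Gpc6, Gpc4, Chrdl1 and Thbs1. The place of Gpc6 was the difference between the orders. In CCI the levels of Gpc6 (2.35 to 3.06 FPKM) lay above those of Thbs2 (1.17 to 1.84 FPKM) without overlap, and in PVT_WT the levels of Gpc6 (0.467 to 1.0 FPKM) lay below those of Thbs2 (1.22 to 1.91 FPKM) without overlap. Neighbours from Thbs2 down to Thbs1 in CCI, and from Gpc6 down to Thbs1 in PVT_WT, overlapped over their libraries. Sparcl1 and Sparc together held 98.7% to 99.1% of the summed FPKM of the 7 genes in CCI and 99.4% to 99.6% in PVT_WT. The other 5 genes held 1.27%, 0.937% and 1.34% in CCI and 0.572%, 0.414% and 0.434% in PVT_WT. This share does not depend on the scaling between libraries, but trends with length and mean expression were not removed from it. With both removed, log2 fold changes were 0.31 for Sparcl1, 0.45 for Sparc and 0.52 for Gpc6. Those of Gpc4, Thbs1, Chrdl1 and Thbs2 were 0.028, -0.065, -0.51 and -1.20, and the share was not recomputed.

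Thrombospondins are the secreted factors that start the series of steps in synapse formation. Thbs1 (ENSMUSG00000040152, chromosome 2, 117942357 to 117957614, plus strand, GRCm39) was the scarcest of the 7 genes. Its libraries held 26, 21 and 29 counts in CCI and 11, 16 and 5 counts in PVT_WT. Its level was 0.536, 0.382 and 0.453 FPKM in CCI and 0.145, 0.214 and 0.0533 FPKM in PVT_WT. All 3 CCI libraries were above all 3 PVT_WT libraries, on this scale and on the TMM scale. On the TMM scale CCI replicate 2 (1.92 CPM) lay only just above PVT_WT replicate 5 (1.89 CPM). The log2 fold change was 1.12 ± 0.52 (SE), which did not pass (edgeR's quasi-likelihood test, adjusted p = 0.0996). With so few counts the 95% counting interval of the lowest library, 5 counts, ran from 1.62 to 11.7, covering counting error alone. The call was reached without PVT_WT replicate 5 (1.73, adjusted p = 0.0119) and with library totals (1.75, adjusted p = 0.0158). With the trends of length and mean expression removed, the value was -0.065. In the reference annotation Thbs1 shares 208 exon bases with Gm29233 on the other strand, so a part of its reads could come from that gene.

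Thbs2 (ENSMUSG00000023885, chromosome 17, 14885762 to 14914497, minus strand) behaved differently. Its level was 1.84, 1.75 and 1.17 FPKM in CCI and 1.91, 1.22 and 1.45 FPKM in PVT_WT, and the groups overlapped. On the TMM scale its libraries were at 10.3, 10.1 and 6.63 CPM in CCI and 14.9, 12.4 and 11.7 CPM in PVT_WT, and did not overlap. Its log2 fold change was -0.53 ± 0.24 (adjusted p = 0.0934). Thbs2 passed as lower without PVT_WT replicate 5 (-0.59, adjusted p = 0.0488) and with the length trend removed (-0.82, adjusted p = 0.0217). With length and mean expression trends removed it also passed as lower (-1.20, adjusted p = 0.00639), and it was at 0.051 with library totals.

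The ratio of Thbs2 to Thbs1 within a library is free of the scaling between libraries. It was 3.44, 4.58 and 2.57 in CCI and 13.2, 5.69 and 27.2 in PVT_WT, lower in every CCI library. The difference of the mean log2 ratios was -1.88. An exact two-sided permutation test gave p = 0.10 (0.15 adjusted over the 3 ratios compared), the smallest that 3 against 3 libraries allow.

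**Figure D2:**
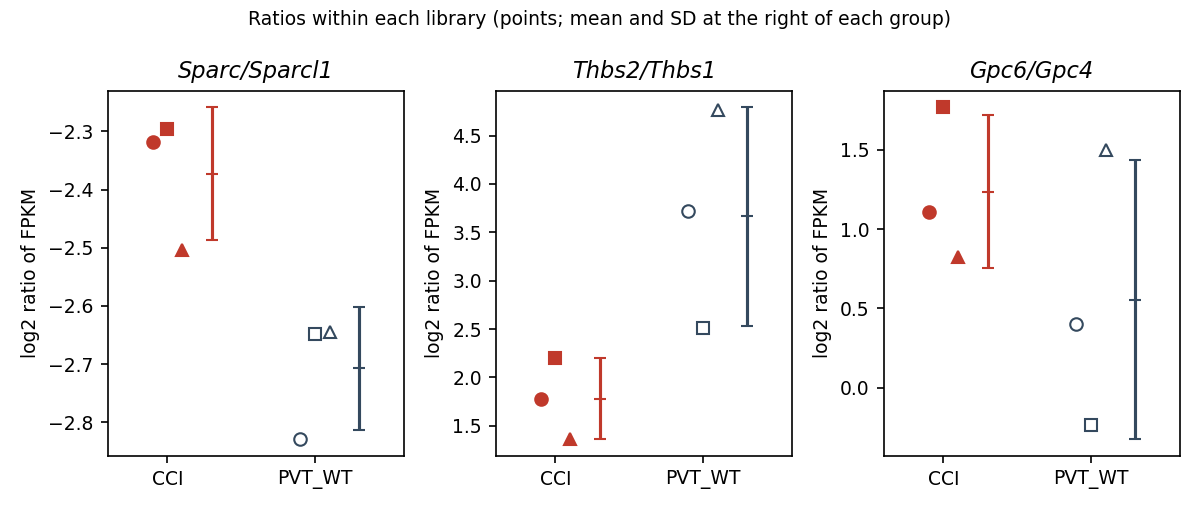
Log2 ratio of FPKM within each library for the 3 gene pairs, CCI at the left and PVT_WT at the right of each panel, with the mean and SD beside the points. The CCI libraries lie above the PVT_WT libraries for Sparc over Sparcl1 and below them for Thbs2 over Thbs1, and overlap with them for Gpc6 over Gpc4.

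The SPARC family pair were the abundant members. Sparcl1 (ENSMUSG00000029309, chromosome 5, 104226977 to 104261599, minus strand) was at 477, 539 and 409 FPKM in CCI and 671, 535 and 637 FPKM in PVT_WT. On this scale PVT_WT replicate 5 lay just under CCI replicate 2, so the groups overlapped. On the TMM scale Sparcl1 was at 1121, 1310 and 974 CPM in CCI and 2189, 2290 and 2160 CPM in PVT_WT, lower in every CCI library. Its fold change was (log2) -0.96 ± 0.23, which passed (adjusted p = 0.00784). Without CCI replicate 1 the adjusted p was 0.0513 at -0.96. With library totals the value was -0.37 (adjusted p = 0.144), with the astrocyte markers set equal between libraries -0.47 (adjusted p = 0.112), and with length and mean expression trends removed 0.31 (adjusted p = 0.228).

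Sparc (ENSMUSG00000018593, chromosome 11, 55285326 to 55314009, minus strand) also lay lower in CCI on the TMM scale. Its level was 95.6, 110 and 72.0 FPKM in CCI and 94.4, 85.2 and 102 FPKM in PVT_WT, overlapping, with means of 92.5 ± 19.1 FPKM in CCI and 93.8 ± 8.29 FPKM in PVT_WT (SD, n = 3 each). On the TMM scale it was at 290, 344 and 221 CPM in CCI and 397, 471 and 445 CPM in PVT_WT, without overlap. The log2 fold change was -0.62 ± 0.21 (edgeR, adjusted p = 0.0356). The call was lost without CCI replicate 1 (adjusted p = 0.108), without CCI replicate 3 (0.113) and without PVT_WT replicate 6 (0.0893), and the value was -0.020 with library totals. With length and mean expression trends removed it was 0.45 (adjusted p = 0.0648).

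Within a library, the ratio of Sparc to Sparcl1 was 0.200, 0.204 and 0.176 in CCI and 0.141, 0.159 and 0.160 in PVT_WT. Each CCI library was above each PVT_WT library, so that Sparcl1 was lower relative to its antagonist in CCI. The mean log2 ratio differed by 0.33, against SDs of 0.11 in CCI and 0.11 in PVT_WT, with an exact permutation p of 0.10 (0.15 adjusted), the smallest possible. Trends with length and mean expression were not removed from this ratio. The log2 fold changes of Sparc and Sparcl1 were -0.51 and -0.73 with the length trend removed. With both trends removed they were 0.45 and 0.31.

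The glypicans are heparan sulphate proteins attached to the astrocyte surface and shed from it. Gpc6 (ENSMUSG00000058571, chromosome 14, 117162727 to 118213956, plus strand) had 157, 157 and 159 counts in CCI and 80, 37 and 96 counts in PVT_WT, although the CCI libraries were the shallower ones. Its level was 3.06, 2.70 and 2.35 FPKM in CCI and 1.0, 0.467 and 0.968 FPKM in PVT_WT. The CCI libraries were close together and all above the PVT_WT libraries, on both scales. The log2 fold change was 1.17 ± 0.25 (adjusted p = 0.00531). It was positive in all 16 alternative settings and passed in 15 of them, including each with 1 library left out (0.95 to 1.27). The exception was the removal of both length and mean expression trends, where it was 0.52 (adjusted p = 0.121).

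Gpc4 (ENSMUSG00000031119, X chromosome, 51141898 to 51254129, minus strand), the better known synaptogenic glypican, was scarce. Its level was 1.42, 0.791 and 1.33 FPKM in CCI and 0.757, 0.550 and 0.342 FPKM in PVT_WT, with no overlap on this scale. CCI replicate 2 lay just above PVT_WT replicate 4. On the TMM scale it was at 3.01, 1.73 and 2.85 CPM in CCI and 2.23, 2.13 and 1.05 CPM in PVT_WT, overlapping. On the log2 scale the fold change was 0.51 ± 0.41 (adjusted p = 0.316). It passed with library totals (1.11, adjusted p = 0.0480) and was at 0.028 with both trends removed.

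The Gpc6 to Gpc4 ratio within a library was 2.16, 3.41 and 1.77 in CCI and 1.32, 0.848 and 2.83 in PVT_WT. The groups overlapped, and the mean log2 ratio differed by 0.68 (exact permutation p = 0.30). The glypican sum of both genes was 4.48, 3.49 and 3.68 FPKM in CCI and 1.76, 1.02 and 1.31 FPKM in PVT_WT.

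Chrdl1 (ENSMUSG00000031283, X chromosome, 142068670 to 142177258, minus strand) binds BMPs and keeps them from their receptors. It was at 0.519, 0.523 and 1.24 FPKM in CCI and 0.582, 0.132 and 0.403 FPKM in PVT_WT. The groups overlapped, with CCI replicate 3 the highest library and PVT_WT replicate 5 the lowest. Its log2 fold change was 0.49 ± 0.50 (adjusted p = 0.424), and -0.062 without CCI replicate 3.

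Among all 7 genes, 1 was called higher and 2 lower in CCI, beside 27.0% and 25.3% of all tested genes. The median log2 fold change of the 7 was 0.49, against 0.055 over all tested genes. By library totals 3 were higher (Thbs1, Gpc4 and Gpc6) and none lower, beside 45.4% and 9.73% of all genes. Without PVT_WT replicate 5, 2 were higher and 3 lower, beside 31.5% and 30.5% of genes, and without CCI replicate 1 none was lower, beside 18.2% of genes. Sparcl1 alone was called lower without CCI replicate 3, beside 19.2% of genes, and without PVT_WT replicate 6, beside 21.8%. The libraries did not overlap on the TMM scale for 2 genes higher in CCI and 3 lower, against 33.6% and 29.4% of tested genes, and on FPKM for 3 higher and none lower, against 54.1% and 12.5%.

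**Figure D3:**
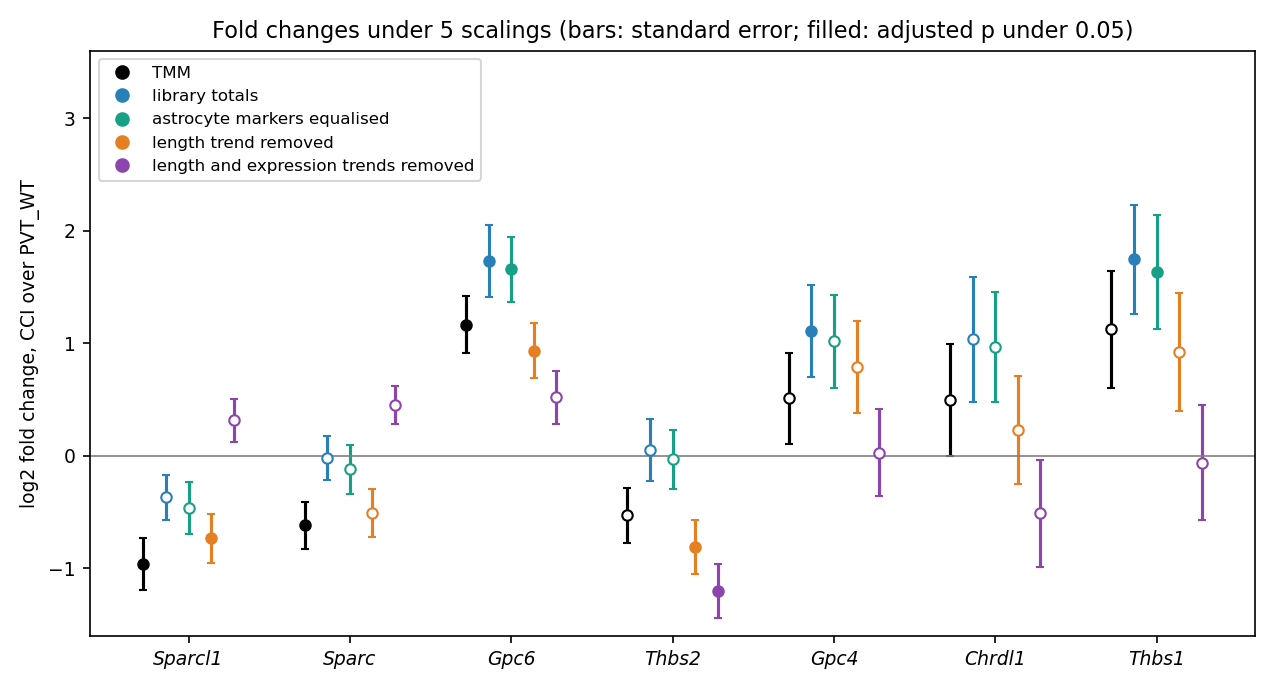
Log2 fold change (CCI over PVT_WT) of each gene with its standard error under 5 scalings, filled where the adjusted p is under 0.05. Gpc6 is above 0 under each of the 5, whereas Sparcl1 and Sparc are below 0 under 4 and above 0 with length and expression trends removed.

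Longer genes had higher fold changes across the whole table. The median log2 fold change was -0.34 in the shortest of 5 equal bins of tested genes (255 to 2557 bp) and 0.58 in the longest (7780 to 123179 bp). Sparc (3788 bp), Sparcl1 (2937 bp) and Gpc4 (2651 bp) were in the second bin, with a median of -0.24. Thbs1 (6073 bp), Gpc6 (6425 bp), Chrdl1 (6758 bp) and Thbs2 (7003 bp) were in the fourth, with a median of 0.24. Thbs2 lay below and Gpc6 above the median of their shared bin, and Gpc4 lay above that of its own. With the length trend removed Gpc6 was at 0.93 (adjusted p = 0.0134), Sparcl1 at -0.73 (adjusted p = 0.0229) and Sparc at -0.51 (adjusted p = 0.0768).

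**Figure D4:**
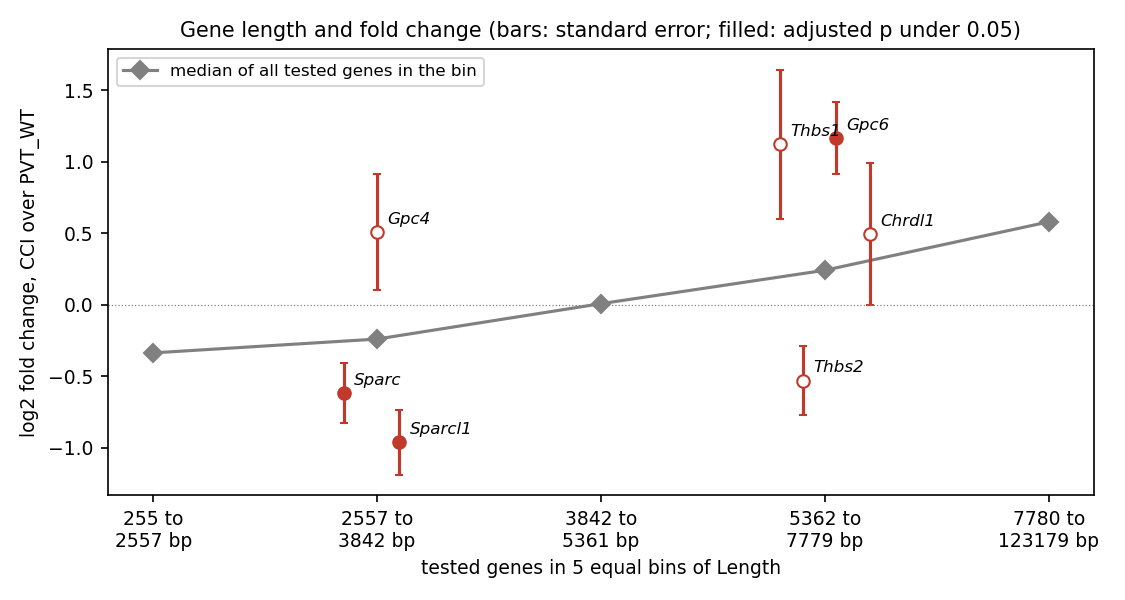
Log2 fold change of each gene with its standard error, placed by the length bin it falls in (5 equal bins of tested genes; sideways offsets within a bin are for legibility), with the median of all tested genes per bin as grey diamonds. The median climbs with length from -0.34 to 0.58, and the 7 genes lie on both sides of it.

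Relatives of these genes were tested as a list. Of 20 relatives, 16 could be tested, of which 3 were higher, 4 lower and 9 did not pass (median -0.43), beside 27.0% higher and 25.3% lower among all tested genes. Thbs4 (1, 14 and 59 counts in CCI, 5, 0 and 4 in PVT_WT) and Gpc2 (6 counts over the CCI libraries, 0 over the PVT_WT libraries) were among the 4 too low to test. Most Thbs4 counts came from CCI replicate 3. Spock3, a testican that belongs to the SPARC family, was at 31.9, 39.2 and 30.3 FPKM in CCI and 87.0, 86.9 and 125 FPKM in PVT_WT, and fell by 2.16 ± 0.23 on the log2 scale (adjusted p = 0.000263). Spock2, its close relative, rose by 0.74 ± 0.15 to 39.6 ± 2.96 FPKM in CCI, against 15.7 ± 2.43 FPKM in PVT_WT (SD, n = 3). Both passed in all 16 alternative settings. Chrd, the founding BMP inhibitor of the chordin family, rose by 1.87 ± 0.38, at the low levels of 1.07 ± 0.19 FPKM in CCI and 0.197 ± 0.11 FPKM in PVT_WT, and was at 0.89 with both trends removed (adjusted p = 0.0871). Twsg1, which works with chordin, fell by 1.21 ± 0.24, and was at -0.65 with library totals (adjusted p = 0.106). With library totals 5 relatives were higher and 1 lower, beside 45.4% and 9.73% of all genes.

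Neuronal partners were tested as a list of 14 receptors and effectors. Of these 8 were higher, 3 lower and 3 did not pass (median 0.53), beside 27.0% higher and 25.3% lower among all tested genes. The summed level of 10 neuronal markers was 785 to 942 FPKM in CCI and 1069 to 1190 FPKM in PVT_WT. On the TMM scale, on which the calls were made, it was 3661 to 4108 CPM in CCI and 7614 to 9982 CPM in PVT_WT, and its part in these counts was not tested. Ptprd, a receptor phosphatase of the family that binds glypicans, was at 21.6, 20.2 and 21.6 FPKM in CCI and 4.63, 4.14 and 4.79 FPKM in PVT_WT. It rose by 1.62 ± 0.16 (adjusted p = 0.000236) and passed in all 16 alternative settings, at 0.56 with the length trend removed (adjusted p = 0.0158). Ptprs, of the same family, rose by 1.06 ± 0.15, and was at 0.28 with the length trend removed (adjusted p = 0.148). Gria2, an AMPA receptor subunit gene, rose by 1.07 ± 0.22, and was at 0.25 with the length trend removed (adjusted p = 0.338). Cd47, a thrombospondin receptor gene, fell by 0.97 ± 0.19, and was at 0.052 with length and mean expression trends removed (adjusted p = 0.821). A further pair of partners was named for their role after their values were seen. Cacna2d1, the gene of alpha2delta-1, had a log2 fold change of 0.22 ± 0.15 (adjusted p = 0.256) and passed as higher with library totals (0.80, adjusted p = 0.00706). Nlgn1, a neuroligin gene, was at 0.12 ± 0.30, and passed as higher without PVT_WT replicate 5 (0.51, adjusted p = 0.0213) and with library totals (0.77, adjusted p = 0.0231). The number of partners called higher was 5 without CCI replicate 1 or CCI replicate 3, beside 20.0% and 20.8% of all genes. It was 4 without PVT_WT replicate 6, beside 21.3%, and 3 with the length trend removed, beside 22.5%. With library totals 11 were higher and none lower, beside 45.4% and 9.73%.

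Components of BMP signalling, which Chrdl1 and Chrd restrain, were tested as 19 genes. Of these 6 were higher, 1 lower and 12 did not pass (median 0.20), the share higher being near the 27.0% of all tested genes (25.3% of which were lower). Id1, Id2 and Id3, transcription regulator genes switched on by BMP signals, all rose. Id1 was at 16.7, 22.8 and 23.9 FPKM in CCI and 4.15, 1.26 and 2.18 FPKM in PVT_WT (2.51 ± 0.34, adjusted p = 0.000647). Id3 was at 72.5, 70.4 and 62.9 FPKM in CCI and 21.8, 10.4 and 18.4 FPKM in PVT_WT (1.46 ± 0.20, adjusted p = 0.000602). Id2 rose by 0.83 ± 0.16 and Smad4, the shared transducer, by 0.95 ± 0.23. These 4 genes passed in each of the 16 alternative settings. Id4, named after its values were seen, was at -0.027 ± 0.18 (adjusted p = 0.910). Of the 16 alternatives it passed only with length and mean expression trends removed (0.92, adjusted p = 0.00573). None of the 5 BMP ligand genes passed. Smad1 was the gene called lower. None was lower without CCI replicate 1, CCI replicate 3 or PVT_WT replicate 6, beside 18.2%, 19.2% and 21.8% of all genes. Without PVT_WT replicate 4 or PVT_WT replicate 5, 2 were lower, beside 24.3% and 30.5% of all genes. With library totals 9 were higher and none lower, beside 45.4% and 9.73% of all genes.

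Other synaptogenic factors were a mixed list of 10 genes with 8 tested, of which 2 were higher, 2 lower and 4 did not pass (median 0.48), close to the 27.0% and 25.3% of all tested genes. Bdnf, a neurotrophin gene, fell by 0.95 ± 0.16, and was at -0.35 with library totals (adjusted p = 0.0911). Nlgn3, a neuroligin gene of neurons and astrocytes, fell by 0.91 ± 0.22, and was at -0.35 with library totals (adjusted p = 0.313). Megf10, an astrocyte receptor for synapse engulfment, rose by 0.95 ± 0.32, and Tgfb2, a growth factor gene, by 0.56 ± 0.20. Neither of these rises passed without any 1 of the CCI libraries, without PVT_WT replicate 6, or with the length trend removed. The rise of Megf10 was also lost without PVT_WT replicate 4, and that of Tgfb2 with DESeq2's size factors. With library totals 5 of the list were higher and none lower, beside 45.4% and 9.73%.

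**Figure D5:**
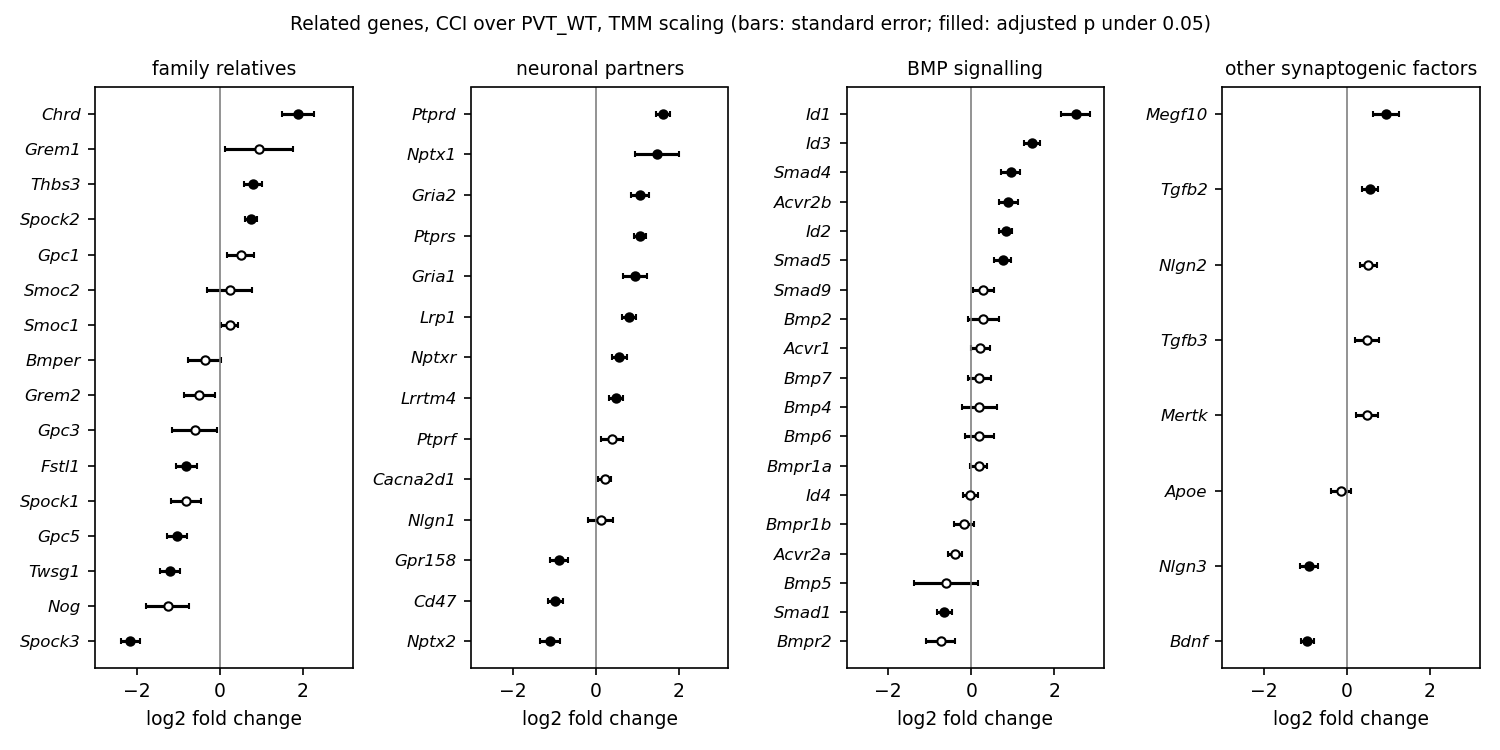
Log2 fold change (CCI over PVT_WT) with standard error for the tested genes of 4 lists, filled where the adjusted p is under 0.05. Ptprd leads the partners, Id1 and Id3 lead BMP signalling, and Spock3 is the lowest of the relatives.

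The genes most like each member were ranked by Pearson r on log2 CPM over the 6 libraries. This r takes in both the difference between groups and the variation within them, and it is a description. The genes most like Thbs2, Gpc4 and Chrdl1 did not pass the test between groups. Gpc6 was most like Dlec1, Gria4 and Ephb6 (r = 0.998 for each). Sparcl1 was most like Ilf2, Hspa8 and Cd200 (r = 0.999, 0.999 and 0.998), and Sparc like Slitrk6, Nutf2 and Vwc2l (r = 0.994, 0.994 and 0.993). For Thbs1 these were Ythdc2, Setbp1 and Antxr1, for Thbs2 Slc39a8, Fdxacb1 and Lrrtm3, for Gpc4 Ano1, Btbd19 and Dennd3, and for Chrdl1 Lmo4, Cldn14 and Tgfb1i1, with r of 0.977 (Lrrtm3) to 0.998 (Ythdc2). Gria4, an AMPA receptor subunit gene, averaged 220 CPM in CCI and 64.4 CPM in PVT_WT. Its likeness to Gpc6 over the same libraries largely fixes the direction of this gap, but not its size. Among the 7 themselves, Sparc and Sparcl1 had r = 0.95 and Gpc6 and Sparcl1 r = -0.88.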

How the data were processed

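The submitters' processing notes name the GRCm39 assembly and the tools HISAT2 2.1.0, fastp 0.22.0, StringTie 2.2.1, HTSeq 0.9.1 and DESeq 1.38.3. Per the labels' protocols, poly-A RNA was primed at random. Per the file headers, the deposited table gives a read count and an FPKM per gene and library. Dividing each count by Length and by its column total gave back the deposited FPKM. Of the 21959 genes 4001 had no count.

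Counts were tested with edgeR 4.0.16 (R 4.3.3; TMM, filterByExpr, quasi-likelihood F-test) over 14259 genes with Benjamini-Hochberg adjustment and a threshold of 0.05. CPM is TMM-scaled, and the SE is the log2 fold change over the root of F. Limma 3.58.1 and DESeq2 1.42.0 served as alternatives, beside other scalings and filters, removal of trends by loess (span 0.3) and leaving out each library. The code was tested on simulated data with 200 changed genes among 13999. It recovered 37% of the 2-fold and 92% of the 4-fold changes, with 6 false calls. A gene that did not pass can therefore still differ by 2-fold. The genes and lists were chosen with earlier results of these data known, and 1 gene of the neuronal list is not reported here. Named were the 7 genes, Gfap, up to 4 genes per list with the smallest p, and 3 genes most like each of the 7, leaving out Gm, Rik and accession symbols. Exon overlaps came from GENCODE M21 (GRCm38), by symbol.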

Additional observations from a re-analysis of the deposited data

How the results depend on the processing

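No paired analysis was possible because the groups share no replicate number. Fold changes are log2, CCI over PVT_WT. DESeq2 size factors, the DESeq2 Wald test and no filter left the call of each of the 7 genes as it was and called 1 of the other synaptogenic factors higher, against 2. Over all genes these settings called 3601, 3724 and 3829 higher, the last among 17958 tested. The stricter filter put Sparc at -0.48. Thbs1, Gpc4 and Chrdl1 did not enter it, and of the 4 genes that did, 1 was higher and 1 lower. Of all 10355 genes that entered it, 3131 were higher and 2797 lower. By library totals Thbs1 was at 1.75, Thbs2 0.051, Sparc -0.020, Sparcl1 -0.37 and Gpc4 1.11, by limma on log2(FPKM + 1) at 0.36, 0.032, -0.038, -0.37 and 0.49, and by limma on log2(FPKM + 0.1) at 1.28, 0.048, -0.038, -0.37 and 0.99. Each of these 3 called 3 of the 7 genes higher and 0 lower, 5 relatives higher and 1 lower, and 0 BMP genes lower. Other factors were 5, 6 and 6 higher and 0 lower, partners 0 lower each, and all genes 6474, 6785 and 6632 higher and 1387, 1374 and 1345 lower. With astrocyte markers set equal, Thbs1 was at 1.63, Sparc at -0.12 and Sparcl1 at -0.47. That setting gave 2 of the 7 genes higher and 0 lower, 5 relatives higher and 2 lower, 0 partners lower, 0 BMP genes lower, 5 other factors higher and 1 lower, and 6257 genes higher and 1710 lower. The length trend removed put Thbs2 at -0.82 and Sparc at -0.51, with 3 partners and 0 other factors higher and 3 BMP genes lower. Of all 14259 tested genes 3210 were then higher and 3631 lower. Mean expression removed as well put Thbs1 at -0.065, Thbs2 at -1.20, Sparc at 0.45, Sparcl1 at 0.31, Gpc6 at 0.52, Chrdl1 at -0.51 and Cd47 at 0.052. It gave 0 of the 7 genes higher and 1 (Thbs2) lower, 1 relative and 5 partners higher and 3 BMP genes lower. Beside these, 2446 of all 14259 tested genes were higher and 2785 lower. Id4 was at 0.54 by library totals, 0.46 with astrocyte markers equal, 0.11 with the stricter filter, 0.081 and 0.92 with the trends removed, and 0.57 and 0.58 by limma. With the length trend and then both trends removed, Cacna2d1 was at -0.43 and -0.17 and Nlgn1 at -0.57 and -0.047. The cause of these shifts was not tested. Leaving out 1 library gave Thbs1 0.66 to 1.73, Thbs2 -0.64 to -0.35, Sparc -0.78 to -0.47, Sparcl1 -1.08 to -0.87, Chrdl1 -0.062 to 0.83, Nlgn1 -0.13 to 0.51 and Id4 -0.17 to 0.035. It gave 1 to 2 of the 7 genes higher and 0 to 3 lower, 2 to 4 relatives higher and 3 to 5 lower, 4 to 9 partners higher, 4 to 6 BMP genes higher and 0 to 2 lower, 0 to 2 other factors higher, and 2881 to 4560 genes higher and 2630 to 4415 lower. The ratios were rerun only with a small added constant, as counts without length, and without each library. Their differences kept direction, with Thbs2 over Thbs1 at -2.46 to -1.33, Sparc over Sparcl1 at 0.27 to 0.40 and Gpc6 over Gpc4 at 0.28 to 1.15 without 1 library. Leaving out length shifts a pair's log2 ratio equally in every library, so that setting could hardly change a difference. Trends with length and mean expression were not removed from the ratios. Thbs1, Gpc4 and Chrdl1 had 5 to 88 counts per library.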
